A study of Rattus norvegicus with 16 samples.

Results

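Chemokines are small secreted proteins that direct the movement of leukocytes, and they act through G protein-coupled receptors on the cells they attract. Transcripts of this family were followed in the knee joint of male Wistar rats with osteoarthritis (OA) induced by monosodium iodoacetate (MIA), an inhibitor of glycolysis that kills chondrocytes. A gene was taken when its symbol on the array was Ccl, Cxcl, Ccr, Cxcr or Ackr with a number, or was Xcl1, Xcr1, Cx3cl1 or Cx3cr1, and when its probe set carried that symbol alone. This gave 53 of the 18166 genes with such a probe set, 34 ligands and 19 receptors, and each of the 53 had 1 probe set. Groups were intact rats and rats at day 2, 14 or 28 after 3 mg of MIA had been injected into the knee, with 4 Affymetrix Rat Gene 2.0 ST arrays per group and the RNA of a pair of animals pooled on each array. The tissue was meniscus and articular cartilage of both bones of the knee, together with some joint capsule and bone. No saline-injected animals were on the arrays, so a difference from intact rats holds the effect of the injection as well as that of MIA, and the same 4 intact arrays served all 3 days. In tissue of mixed cells, more cells of a type and more RNA per cell cannot be told apart.

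The family is divided into CC, CXC, XC and CX3C classes by the spacing of the cysteines near the start of the protein. CC ligands such as Ccl2 and Ccl7 mainly draw monocytes, eosinophils and lymphocytes, CXC ligands such as Cxcl1 and Cxcl6 draw neutrophils, and Cxcl9, Cxcl10 and Cxcl11 draw T cells that carry Cxcr3. Atypical receptors such as Ackr2 and Ackr3 bind chemokines without the usual G protein signal and take them up, which lowers their concentration outside the cell. In joints, macrophages of the synovium, fibroblasts and chondrocytes are known sources of chemokines.

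At day 2, 15 of the 53 genes were higher than in intact rats and 9 were lower (28.3% and 17.0%, limma with Benjamini-Hochberg adjusted p under 0.05), beside 19.8% and 15.2% of all 18166 genes. With a change of more than 2-fold as well, 12 were higher and 4 lower (22.6% and 7.5%), beside 2.12% and 2.09% of all genes. At day 14, 12 genes were higher and 7 lower, beside 12.2% and 8.74% of all genes, and 7 and 1 of them by more than 2-fold, beside 0.881% and 1.51%. At day 28, 8 were higher and 11 lower, beside 11.0% and 9.57%, and 4 and 7 of them by more than 2-fold, beside 0.892% and 2.26%. The median difference over the 53 genes was -0.09, -0.01 and 0.01 on the log2 scale at days 2, 14 and 28, beside -0.05, -0.03 and 0.01 over all genes. The arrays of a day lay entirely above or below the intact ones for 23 genes at day 2, 20 at day 14 and 19 at day 28 (43.4%, 37.7% and 35.8%), beside 37.4%, 24.8% and 26.7% of all genes. From day 2 to day 14 the arrays did not overlap for 13 genes (24.5% beside 27.8%), and from day 14 to day 28 for 6 (11.3% beside 10.1%). Across the 3 days, 29 genes of the family passed limma's F-test, beside 42.8% of all genes. Cxcl13, Cxcr2, Cxcl3 and Ccl27 were each called on a single day but did not pass this F-test (adjusted p = 0.078, 0.065, 0.061 and 0.12).

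Ligands made up most of the increases, and they are also most of the family. Among the 34 ligands, 12, 10 and 6 were higher at days 2, 14 and 28 (35.3%, 29.4% and 17.6%). Lower ligands numbered 5, 5 and 8 (14.7%, 14.7% and 23.5%). Among the 19 receptors, 3, 2 and 2 were higher (15.8%, 10.5% and 10.5%). Lower receptors numbered 4, 2 and 3 (21.1%, 10.5% and 15.8%). The shares of all genes were 19.8%, 12.2% and 11.0% higher and 15.2%, 8.74% and 9.57% lower. Whether the shares of ligands or receptors differ from these was not tested. Of all genes that were called at day 2, 56.7% were higher. This share was 50.9% after cyclic loess and 70.3% when each array was centred on its median. At day 14 it was 58.3%, against 47.7% after cyclic loess and 67.9% with median-centred arrays. The family had 15 higher genes at day 2 and 12 at day 14 under all 3 scalings.

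**Figure D1:**
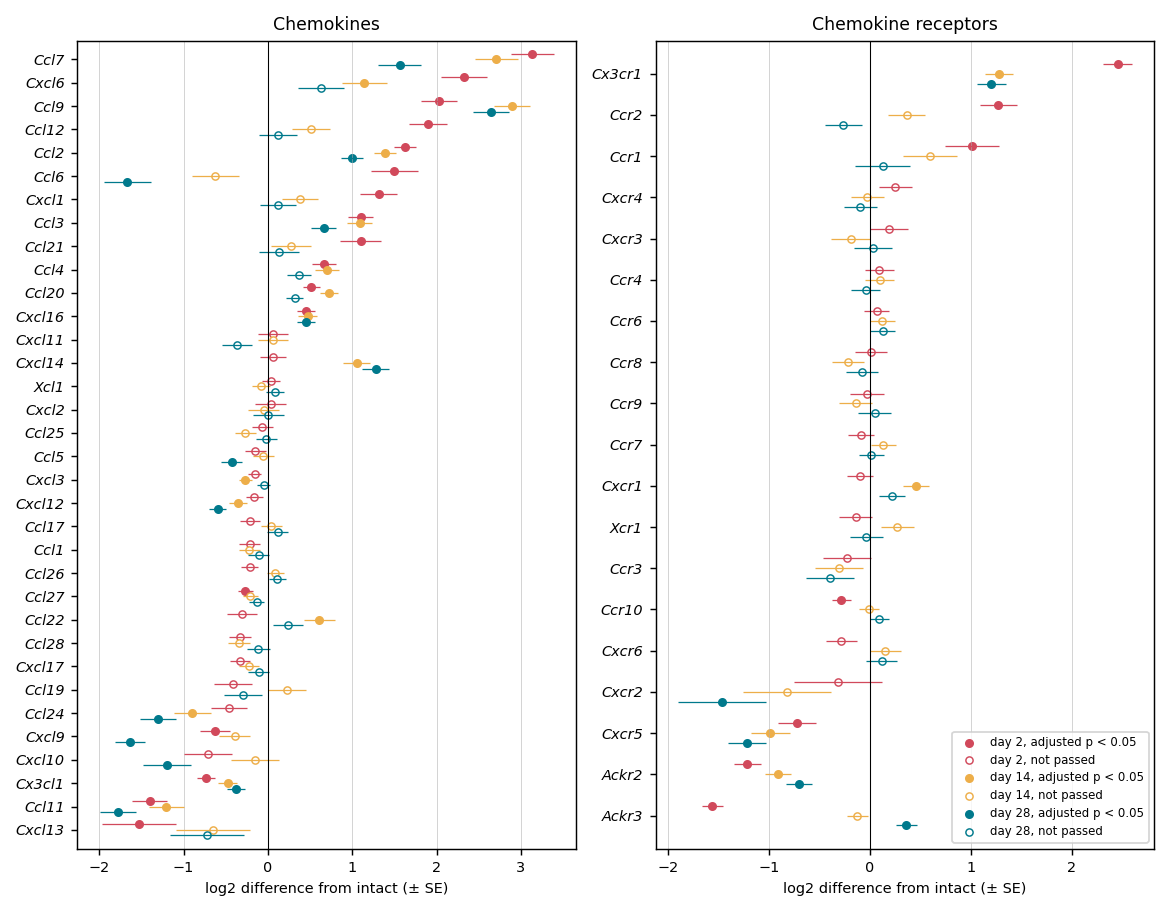
Log2 difference from intact rats of the 34 chemokines (left) and 19 receptors (right) at days 2, 14 and 28, with the standard error of the fit and n = 4 arrays per group; filled points passed an adjusted p of 0.05 and open points did not. Ccl7 reached 3.13 at day 2 and Cx3cr1 2.45, whereas Ackr3 lay at -1.56 at day 2 and reached 0.36 by day 28.

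Several properties of the samples bear on these genes. All 53 genes were measured as log2 signals from RMA, so their levels are compared between arrays and not between genes. Marker transcripts of bone marrow varied between arrays after day 2. The mean of 32 neutrophil, erythroid and progenitor markers was 9.40 to 9.56 on intact arrays and 8.92 to 9.58 at day 2. At day 14 it was 7.54, 9.68, 8.42 and 7.67 on replicates 1 to 4, and at day 28 it was 7.38, 9.15, 7.94 and 7.04. Every day 28 array was thus below every intact array. A fit with this mean as a covariate therefore cannot tell the marker mean and the day apart. A call lost in it is not shown to come from marrow. The mean of 21 skeletal muscle markers ranged from 6.55 to 11.15 over the 16 arrays. Of these 21, 3 were higher at day 14 than at day 2, beside 9.62% of all genes. Of 20 chondrocyte markers, 14 were lower at day 2, 10 at day 14 and 6 at day 28, with Col2a1, the main collagen of cartilage, at -2.87 at day 2. The shares of all genes that were lower on these days were 15.2%, 8.74% and 9.57%. Of 20 adipocyte markers, 17 were lower at day 2 and all 20 on both later days, and the part of any of these tissues in the results was not tested beyond the fits with marrow and muscle markers as covariates.

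The largest difference of the family was that of Ccl7 at day 2. Ccl7 (MCP-3), a ligand of Ccr1 and Ccr2, read 7.17, 7.47, 6.61 and 7.41 on the intact arrays, 10.07, 10.32, 10.64 and 10.17 at day 2, 9.93, 9.24, 9.78 and 10.54 on day 14 and 8.75, 8.26, 8.99 and 8.92 on day 28. The lowest of the 12 MIA arrays was above the highest intact array. Its differences from intact rats were 3.13 ± 0.25 (SE, adjusted p = 7.3e-07, an 8.77-fold increase), 2.71 (adjusted p = 1.2e-05) and 1.56 (adjusted p = 0.00072), the last of which was 0.95 and no longer passed with the mean of the marrow markers as a covariate (adjusted p = 0.07). Ccl2 (MCP-1), the main Ccr2 ligand, read 10.76, 10.35, 10.11 and 10.37 in intact rats, 11.97, 11.99, 12.04 and 12.09 at day 2, 11.90, 11.58, 11.57 and 12.07 on day 14 and 11.48, 11.34, 11.34 and 11.41 on day 28. Again no MIA array reached down to the intact range. The differences were 1.62 ± 0.13 (SE, adjusted p = 7e-07), 1.38 (adjusted p = 1.3e-05) and 1.00 (adjusted p = 0.00013). Between day 14 and day 28 neither gene passed the test, although the arrays of both did not overlap, with differences of -1.15 for Ccl7 (adjusted p = 0.07) and -0.39 for Ccl2 (adjusted p = 0.26).

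Ccl12, a Ccr2 ligand known from the mouse as MCP-5, was highest at day 2. It read 5.06, 4.49, 4.66 and 4.69 in intact rats and 6.17, 6.27, 6.58 and 7.47 at day 2, where all 4 arrays were above the intact ones (1.90 ± 0.22 SE, adjusted p = 1.8e-05). The day 14 arrays, at 5.33, 5.06, 5.22 and 5.33, and the day 28 arrays, at 4.87, 4.64, 4.76 and 5.11, overlapped those of intact rats, with differences of 0.51 (adjusted p = 0.15) and 0.12 (adjusted p = 0.82). The day 14 difference passed without day 2 replicate 4 (adjusted p = 0.022) and in a fit of the compared groups alone (adjusted p = 0.046). The fall from day 2 to day 14 passed the test (-1.39, adjusted p = 0.00046).

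Ccl9 reached its highest level at day 14. This ligand, which in the mouse binds Ccr1 and is made by osteoclasts and myeloid cells, read 7.33, 6.82, 6.56 and 6.46 in intact rats and 8.27, 8.86, 9.12 and 9.03 at day 2. It then read 9.81, 9.44, 9.60 and 9.89 on day 14 and 9.71, 9.42, 9.59 and 9.04 on day 28. All MIA arrays were above all intact arrays, and those of day 14 were also above those of day 2. Its differences from intact rats were 2.03 ± 0.21 (SE, adjusted p = 7e-06), 2.89 (adjusted p = 2.2e-06) and 2.65 (adjusted p = 1.8e-06), and it rose by 0.86 from day 2 to day 14 (adjusted p = 0.012).

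Ccl6, its neighbour on the chromosome and in the mouse also a Ccr1 ligand of myeloid cells, changed direction. It read 8.78, 8.88, 8.37 and 9.01 in intact rats, 10.47, 10.23, 9.76 and 10.57 at day 2, 7.92, 8.57, 7.94 and 8.09 on day 14 and 6.70, 7.99, 7.17 and 6.49 on day 28. Its arrays were all above the intact ones at day 2 and all below them at day 28, and they overlapped at day 14. The differences were 1.50 ± 0.28 (SE, adjusted p = 0.0009), -0.62 (adjusted p = 0.16) and -1.67 (adjusted p = 0.00089), and the fall from day 2 to day 14 was -2.12 (adjusted p = 8.3e-05). With the mean of the marrow markers as a covariate, the day 28 difference was -0.87 and no longer passed (adjusted p = 0.068).

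Ccl3 (MIP-1 alpha), a Ccr1 ligand, read 6.66, 6.86, 6.94 and 7.03 in intact rats, 7.83, 7.88, 7.86 and 8.32 at day 2, 8.21, 7.78, 7.63 and 8.22 on day 14 and 7.70, 7.43, 7.54 and 7.46 on day 28. Every MIA array was above every intact array. The differences were 1.10 ± 0.15 (SE, adjusted p = 5.4e-05), 1.09 (adjusted p = 0.0002) and 0.66 (adjusted p = 0.0066), the last of which was 0.42 (adjusted p = 0.29) with the marrow covariate. Ccl4, which is close to Ccl3 in sequence, was higher at day 2 and day 14 by 0.66 and 0.70 (adjusted p = 0.0027 and 0.0039). Whether probes of such near relatives also bind each other's transcripts is not known from these values. Ccl5, a T cell attractant that also binds Ccr1, read 7.05, 7.02, 6.97 and 7.27 in intact rats, 7.07, 6.89, 6.92 and 6.84 at day 2, 7.31, 6.82, 6.98 and 6.99 on day 14 and 6.63, 6.58, 6.97 and 6.42 on day 28. The arrays of days 2 and 14 overlapped the intact ones. The day 28 arrays did not overlap the intact ones, replicate 3 of both groups lying close together, and the difference was -0.43 ± 0.12 (SE, adjusted p = 0.029). That call was lost on leaving out intact replicate 1 (-0.44, adjusted p = 0.05) or 4 (-0.37, adjusted p = 0.087) or day 28 replicate 1 (-0.42, adjusted p = 0.069), 2 (-0.41, adjusted p = 0.07) or 4 (-0.35, adjusted p = 0.095).

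**Figure D2:**
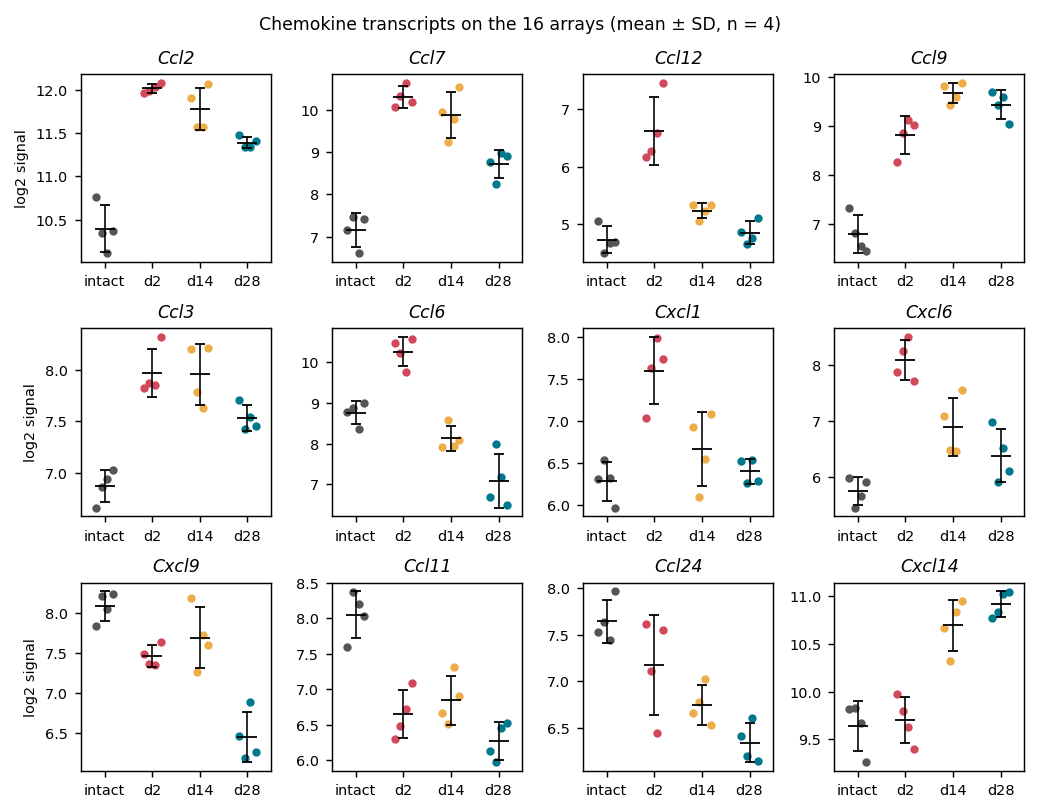
Log2 signal of 12 chemokines on the 16 arrays, with 1 point per array, the group mean and its SD (n = 4), for intact rats and days 2 (d2), 14 (d14) and 28 (d28). Ccl7 and Ccl9 stayed above the intact arrays on all days, Ccl12 and Cxcl1 were high at day 2, Ccl6 crossed from above to below, and Cxcl14 was high at days 14 and 28.

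The receptors for these ligands rose at day 2. Ccr2, the receptor of inflammatory monocytes, read 9.71, 9.87, 10.00 and 9.89 in intact rats and 11.42, 11.13, 11.22 and 10.79 at day 2, with no overlap. It then read 10.13, 10.56, 9.72 and 10.51 on day 14 and 9.66, 9.87, 9.64 and 9.23 on day 28, both overlapping the intact range. The day 2 difference was 1.27 ± 0.18 (SE, adjusted p = 0.00011), and it fell by 0.91 from day 2 to day 14 (adjusted p = 0.0029). Ccr1, found on monocytes, macrophages and neutrophils, spread more widely. Its values were 7.93, 8.07, 8.00 and 8.07 in intact rats, 9.29, 8.97, 8.49 and 9.38 at day 2, 8.84, 8.87, 8.11 and 8.64 on day 14 and 8.04, 9.01, 8.03 and 7.49 on day 28. Day 2 and day 14 arrays were all above the intact ones, and day 28 arrays were on either side. The differences were 1.01 ± 0.27 (SE, adjusted p = 0.011), 0.59 (adjusted p = 0.16) and 0.12 (adjusted p = 0.85), and the day 14 difference was 1.00 and passed with the marrow covariate (adjusted p = 0.042).

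Cx3cr1, the receptor of patrolling monocytes and of tissue macrophages, had the largest rise among the receptors. Its values were 8.90, 8.86, 8.75 and 8.83 in intact rats, 11.32, 11.27, 11.28 and 11.28 at day 2, 10.46, 9.91, 9.75 and 10.34 on day 14 and 10.36, 9.97, 9.96 and 9.87 on day 28. The groups of intact, day 2 and later arrays were fully apart, and the day 2 arrays were the closest to each other. The differences were 2.45 ± 0.14 (SE, adjusted p = 4.2e-08), 1.28 (adjusted p = 4.4e-05) and 1.20 (adjusted p = 4.8e-05), with a fall of 1.17 from day 2 to day 14 (adjusted p = 3.7e-05). Its main ligand, Cx3cl1 (fractalkine), a membrane-bound chemokine of endothelium and other stromal cells, went the other way. Cx3cl1 read 7.99, 8.16, 8.18 and 8.04 in intact rats, 7.45, 7.32, 7.16 and 7.52 at day 2, 7.89, 7.45, 7.60 and 7.52 on day 14 and 7.90, 7.61, 7.70 and 7.65 on day 28. All 12 MIA arrays were below the intact ones. The differences were -0.73 ± 0.11 (SE, adjusted p = 0.00013), -0.48 (adjusted p = 0.0075) and -0.38 (adjusted p = 0.028). The day 28 call was lost when the arrays were centred on their medians (-0.34, adjusted p = 0.056), with the marrow covariate (-0.51, adjusted p = 0.064), and without intact replicate 2 (-0.36, adjusted p = 0.069) or 3 (-0.35, adjusted p = 0.075) or day 28 replicate 2 (-0.34, adjusted p = 0.076), 3 (-0.37, adjusted p = 0.059) or 4 (-0.36, adjusted p = 0.074).

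Markers of the cells that carry these receptors moved in the same samples. Of 24 macrophage and monocyte markers, 16 were higher and 2 lower at day 2, and their mean on each array was 9.87 to 10.07 against 9.30 to 9.54 in intact rats. At day 14 it was 9.11 to 9.51 with 7 higher and 4 lower, and at day 28 it was 9.08 to 9.34 with 4 higher and 4 lower. Of all genes, 19.8%, 12.2% and 11.0% were higher on the 3 days and 15.2%, 8.74% and 9.57% lower. Fcgr1a, an Fc receptor of inflammatory monocytes and macrophages, was higher at day 2 (1.63) and Vsig4, a marker of resident macrophages, was lower (-2.98). Dendritic cell markers were higher at day 2 in 12 of 17 cases, with array means of 8.49 to 8.63 against 7.81 to 7.85. The part of these cells in the levels of Ccr1, Ccr2 and Cx3cr1 was not tested.

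**Figure D3:**
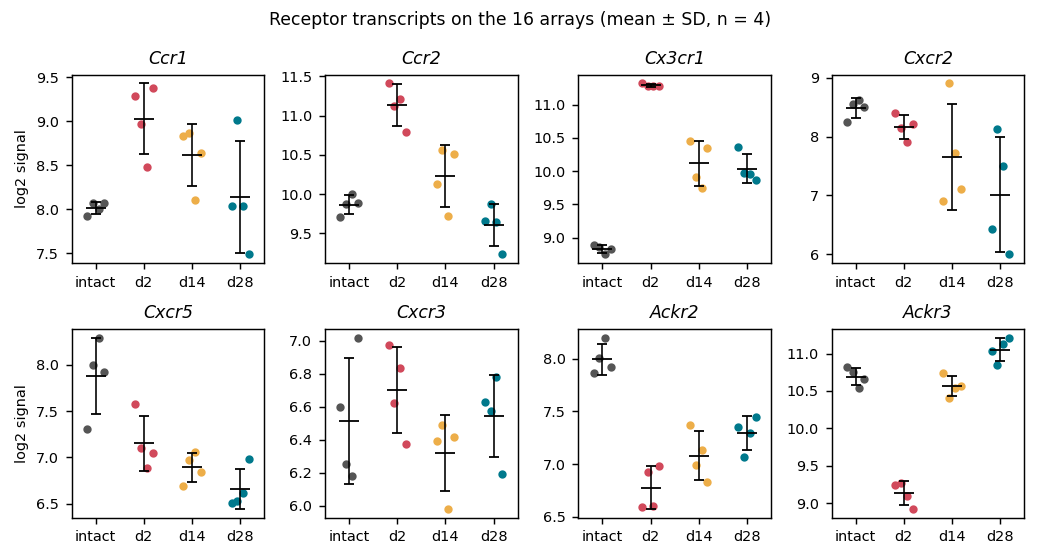
Log2 signal of 8 receptors on the 16 arrays, with 1 point per array, the group mean and its SD (n = 4), for intact rats and days 2 (d2), 14 (d14) and 28 (d28). Cx3cr1 lay between 11.27 and 11.32 at day 2, Ackr3 dipped at day 2, and Cxcr2 spread from 6.00 to 8.91 at days 14 and 28.

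The CXC ligands of neutrophils did not move as a block. Cxcl6, which attracts neutrophils through Cxcr1 and Cxcr2, read 5.98, 5.45, 5.66 and 5.91 in intact rats, 7.86, 8.23, 8.49 and 7.70 at day 2, 7.08, 6.47, 6.47 and 7.55 on day 14 and 6.98, 5.91, 6.52 and 6.10 on day 28. The arrays of days 2 and 14 were above the intact ones, whereas a day 28 array fell within their range. The differences were 2.32 ± 0.27 (SE, adjusted p = 1.6e-05), 1.14 (adjusted p = 0.0096) and 0.63 (adjusted p = 0.15), and the day 14 value was 0.73 (adjusted p = 0.13) with the marrow covariate. Cxcl1, the rat counterpart of the growth-regulated oncogene chemokines, read 6.32, 6.53, 6.32 and 5.97 in intact rats and 7.04, 7.63, 7.98 and 7.74 at day 2, without overlap (1.31 ± 0.21 SE, adjusted p = 0.00032). At day 14 it read 6.93, 6.09, 6.55 and 7.09 and at day 28 6.52, 6.27, 6.53 and 6.28, both overlapping the intact range. From day 2 to day 14 Cxcl1 fell by 0.93 (adjusted p = 0.0074) and Cxcl6 by 1.18 (adjusted p = 0.0065).

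Cxcl2 and Cxcl3, close relatives of Cxcl1, moved little. Cxcl2 read 6.69, 5.79, 5.99 and 6.46 in intact rats and 6.36, 6.04, 6.38 and 6.29 at day 2, with the day 2 arrays inside the intact range (0.03 ± 0.18 SE, adjusted p = 0.92). It read 6.27, 6.12, 6.23 and 6.12 on day 14 and 6.63, 6.26, 6.20 and 5.89 on day 28, within the intact range as well. The later days differed by -0.05 and 0.01 (adjusted p = 0.89 and 0.99). Cxcl3 was dim, between 3.97 and 4.42 on all arrays. At day 14 it read 4.00, 3.97, 3.98 and 4.22 against 4.42, 4.33, 4.30 and 4.20 in intact rats, with replicate 4 of both groups overlapping. It read 4.06, 4.23, 4.11 and 4.22 at day 2 and 4.28, 4.17, 4.24 and 4.36 on day 28, which overlapped the intact arrays. The day 14 difference of -0.27 ± 0.08 (SE, adjusted p = 0.034) was -0.20 (adjusted p = 0.11) after cyclic loess and -0.22 (adjusted p = 0.09) with arrays centred on their medians. It was also lost without intact replicate 1 (-0.23, adjusted p = 0.092), 2 (-0.26, adjusted p = 0.062) or 3 (-0.27, adjusted p = 0.059), and without day 14 replicate 1 (-0.26, adjusted p = 0.081), 2 (-0.24, adjusted p = 0.078) or 3 (-0.25, adjusted p = 0.088).

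The promoters of Cxcl1, Cxcl6 and Cxcl2 are shown because these 3 neutrophil ligands lie in the same chromosomal region of chromosome 14, share a motif and differ in their course after MIA. The sequences are those of NCBI RefSeq on the GRCr8 build, from 250 bases before to 50 bases after the annotated start, written 5′ to 3′ along the gene, and capitals mark matches to the kappaB motif, the site bound by NF-kappaB. The regions are chr14:17479272-17479571 for Cxcl1, chr14:17596368-17596667 for Cxcl6 and chr14:17467206-17467505 for Cxcl2, all on the minus strand.
Cxcl1: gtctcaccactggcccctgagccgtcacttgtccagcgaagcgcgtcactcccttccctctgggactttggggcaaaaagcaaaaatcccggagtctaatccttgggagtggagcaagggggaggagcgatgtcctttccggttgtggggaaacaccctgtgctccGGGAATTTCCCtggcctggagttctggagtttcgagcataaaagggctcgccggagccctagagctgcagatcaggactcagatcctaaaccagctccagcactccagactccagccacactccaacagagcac
Cxcl6: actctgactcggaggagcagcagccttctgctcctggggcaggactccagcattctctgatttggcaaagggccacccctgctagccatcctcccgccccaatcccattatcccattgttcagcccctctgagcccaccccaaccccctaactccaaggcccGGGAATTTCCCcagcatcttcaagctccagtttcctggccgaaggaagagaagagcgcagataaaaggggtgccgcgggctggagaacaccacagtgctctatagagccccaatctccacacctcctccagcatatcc
Cxcl2: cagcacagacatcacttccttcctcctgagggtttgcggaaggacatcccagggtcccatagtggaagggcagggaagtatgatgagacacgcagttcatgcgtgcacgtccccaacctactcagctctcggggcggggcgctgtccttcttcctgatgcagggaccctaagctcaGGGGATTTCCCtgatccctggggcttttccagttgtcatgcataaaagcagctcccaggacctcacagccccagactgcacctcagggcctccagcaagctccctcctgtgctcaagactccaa
The matches start 84, 88 and 74 bases before the start of Cxcl1, Cxcl6 and Cxcl2, and in each gene they are overlapping matches that include both strands. Cxcl1 and Cxcl6 hold the same run of letters. Cxcl2, which was not called on any day, holds its matches at a similar distance from the start. Of the 53 genes, 41 had a promoter in the table, and 8 of these (19.5%) held the kappaB motif on either strand, beside 4.16% of all 27457 promoters of this length. The 8 were Ccl9, Ccl20, Ccr3, Cxcl1, Cxcl2, Cxcl6, Cxcl10 and Cxcl11. Of the 12 genes with a promoter that were higher at day 2, 4 held the motif (Ccl9, Ccl20, Cxcl1 and Cxcl6). Of the 23 that did not pass, 4 held it as well (Ccr3, Cxcl2, Cxcl10 and Cxcl11), and of the 6 lower ones 0 did.

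Ccl9, Ccl7 and Cxcl14 reached their highest group means on different days (14, 2 and 28), and their promoters are shown for comparison. In the same layout, capitals mark the kappaB motif in Ccl9 (chr10:68868828-68869127, minus strand, the first base 106 before the start, on the opposite strand). They also mark the letters TGANTCA, a looser form of the AP-1 site with any base in the middle. These lie in Ccl7 (chr10:67513845-67514144, plus strand, 73 before the start), as TGATTCA, and in Cxcl14 (chr17:8322900-8323199, plus strand, 99 before the start), as TGAGTCA. The letters TTCNNNGAA of the STAT site are marked in Ccl7 (32 bases into the transcript).
Ccl9: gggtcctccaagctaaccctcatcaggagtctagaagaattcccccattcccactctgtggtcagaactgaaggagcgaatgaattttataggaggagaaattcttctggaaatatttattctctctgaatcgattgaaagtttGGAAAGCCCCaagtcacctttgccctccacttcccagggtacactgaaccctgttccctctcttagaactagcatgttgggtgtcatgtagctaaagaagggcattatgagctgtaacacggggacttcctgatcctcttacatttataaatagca
Ccl7: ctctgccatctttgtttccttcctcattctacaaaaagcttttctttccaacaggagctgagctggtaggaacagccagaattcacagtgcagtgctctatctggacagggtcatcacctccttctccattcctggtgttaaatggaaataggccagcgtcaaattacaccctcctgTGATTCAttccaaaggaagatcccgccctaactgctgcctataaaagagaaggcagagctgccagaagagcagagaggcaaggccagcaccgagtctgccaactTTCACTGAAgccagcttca
Cxcl14: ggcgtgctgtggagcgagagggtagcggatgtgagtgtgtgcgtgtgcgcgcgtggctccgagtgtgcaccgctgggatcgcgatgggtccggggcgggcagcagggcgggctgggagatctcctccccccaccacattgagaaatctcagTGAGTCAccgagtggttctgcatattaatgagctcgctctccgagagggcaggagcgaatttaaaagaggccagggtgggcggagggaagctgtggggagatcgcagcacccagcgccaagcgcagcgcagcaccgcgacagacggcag
On both strands, TGANTCA was found in 7 of the 41 promoters (17.1%), beside 7.33% of all promoters, TTCNNNGAA in 6 (14.6% beside 8.68%) and the interferon-stimulated response element in 2 (4.88% beside 3.77%). Some promoters hold several of these motifs, Cxcl10 and Cxcl11 among them. A match of letters is a description of the sequence and not of binding.

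The receptors of the neutrophil ligands gave different pictures. Cxcr2 read 8.24, 8.56, 8.62 and 8.51 in intact rats, 8.41, 8.14, 7.91 and 8.21 at day 2, 6.91, 8.91, 7.72 and 7.10 on day 14 and 6.43, 8.13, 7.50 and 6.00 on day 28. The arrays of days 2 and 14 overlapped the intact ones, and those of day 28 were all below them. The differences were -0.32 ± 0.43 (SE, adjusted p = 0.63), -0.82 (adjusted p = 0.24) and -1.47 (adjusted p = 0.034). Replicate 2 of days 14 and 28, which read highest, was also the array with the highest marrow marker mean on its day. With that mean as a covariate the day 28 difference was 0.053 (adjusted p = 0.94). The mean holds other neutrophil markers and was itself lower at day 28, so this fit cannot tell it and the day apart. The day 28 call was also lost without intact replicate 2 (-1.44, adjusted p = 0.071), 3 (-1.42, adjusted p = 0.076) or 4 (-1.46, adjusted p = 0.069) or day 28 replicate 1 (-1.27, adjusted p = 0.11) or 4 (-1.13, adjusted p = 0.11). Without day 14 replicate 2 the day 14 difference was -1.24 and passed (adjusted p = 0.044). Of 18 neutrophil markers, which did not include Cxcr2, 11 were lower and 1 higher at day 28, with array means of 7.13 to 9.56 against 9.47 to 9.59 in intact rats. At day 2, 1 of the 18 was higher, at means of 9.24 to 9.62. Among all genes, the day 28 shares were 9.57% for lower and 11.0% for higher ones. The share of higher ones at day 2 was 19.8%.

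Cxcr1, the other receptor of Cxcl6, read 5.71, 5.36, 5.53 and 5.67 in intact rats, 5.40, 5.67, 5.58 and 5.25 at day 2, 6.25, 5.80, 5.81 and 6.25 on day 14 and 5.90, 5.85, 5.77 and 5.65 on day 28. Day 14 was the day on which its arrays were all above the intact ones (0.46 ± 0.13 SE, adjusted p = 0.027), and it rose by 0.55 from day 2 (adjusted p = 0.0079). The day 14 call was lost with the marrow covariate (0.35, adjusted p = 0.21) and without intact replicate 2 (0.39, adjusted p = 0.071) or 3 (0.44, adjusted p = 0.058) or day 14 replicate 1 (0.38, adjusted p = 0.085) or 4 (0.38, adjusted p = 0.093).

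**Figure D4:**
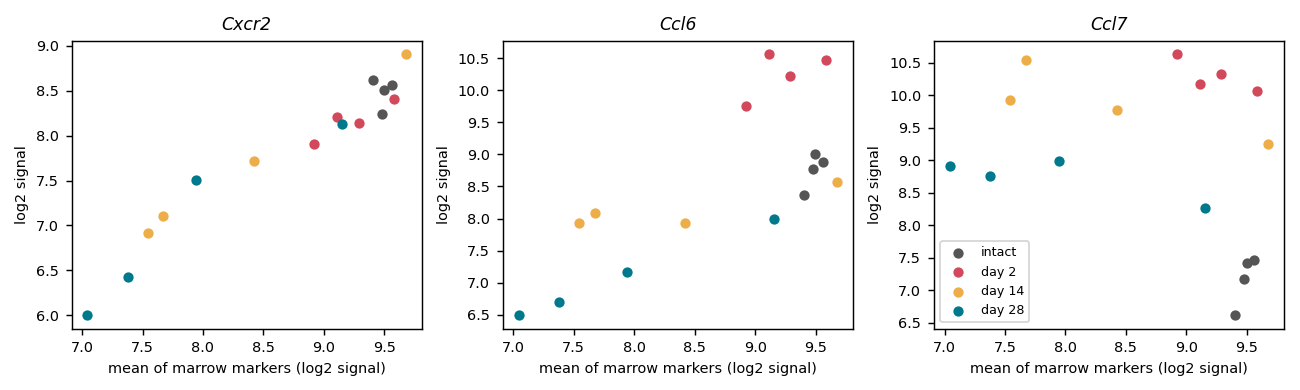
Log2 signal of Cxcr2, Ccl6 and Ccl7 on the 16 arrays against the mean of 32 marrow markers on the same array, coloured by group. Cxcr2 followed the marker mean across groups, from 6.00 at a marker mean of 7.04 to 8.91 at 9.68, Ccl6 at day 2 lay above the arrays with similar marker means, and on arrays with marker means of 8.92 or more Ccl7 was highest at day 2 and lowest in intact rats.

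Cxcl9 and Cxcl10, interferon-induced ligands of Cxcr3, were lower at day 28, and Cxcl9 also at day 2. Cxcl9 read 7.84, 8.22, 8.05 and 8.24 in intact rats, 7.49, 7.36, 7.35 and 7.64 at day 2, 8.18, 7.27, 7.72 and 7.60 on day 14 and 6.46, 6.20, 6.90 and 6.26 on day 28. Day 2 arrays were below the intact ones, day 14 arrays overlapped them, and day 28 arrays were below those of every other group. The differences were -0.63 ± 0.18 (SE, adjusted p = 0.017), -0.40 (adjusted p = 0.17) and -1.63 (adjusted p = 3e-05). The day 2 call was lost without intact replicate 4 (-0.58, adjusted p = 0.051), and the day 14 difference passed without day 14 replicate 1 (-0.56, adjusted p = 0.042). Cxcl9 was the member of the family that passed between days 14 and 28 (-1.24, adjusted p = 0.0057), beside 0.429% of all genes lower and 0.341% higher. Cxcl10 read 8.69, 8.87, 7.92 and 9.15 in intact rats, 8.14, 7.97, 7.51 and 8.18 at day 2, 8.68, 8.63, 7.75 and 8.97 on day 14 and 7.55, 6.96, 7.68 and 7.64 on day 28. An intact array at 7.92 lay within the range of days 2 and 14, and the day 28 arrays were below all intact ones. The differences were -0.71 ± 0.28 (SE, adjusted p = 0.08), -0.15 (adjusted p = 0.77) and -1.20 (adjusted p = 0.0099), the last of which did not pass with the marrow covariate (-1.46, adjusted p = 0.054). The day 2 difference of Cxcl10 passed with the replicate block (adjusted p = 0.032), with the muscle covariate (-0.86, adjusted p = 0.029), and without intact replicate 3 (-0.95, adjusted p = 0.017) or day 14 replicate 3 (adjusted p = 0.043).

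Cxcl11 and the receptor itself did not pass on any day. Cxcl11 read 6.08, 6.34, 5.86 and 5.84 in intact rats, 6.09, 6.00, 5.84 and 6.44 at day 2, 6.40, 5.65, 6.00 and 6.29 on day 14 and 5.85, 5.62, 5.82 and 5.34 on day 28. All groups overlapped the intact one, and the day 28 difference was -0.37 ± 0.18 (SE, adjusted p = 0.21). Cxcr3 read 6.60, 6.25, 6.18 and 7.02 in intact rats, 6.97, 6.62, 6.84 and 6.37 at day 2, 6.39, 6.49, 5.98 and 6.42 on day 14 and 6.63, 6.57, 6.78 and 6.19 on day 28. Its groups overlapped too, with differences of 0.19 ± 0.19 (SE, adjusted p = 0.5), -0.19 (adjusted p = 0.55) and 0.03 (adjusted p = 0.95). Among 18 T cell markers, 4 were higher at day 2 and 1 on each of the later days. Of 14 markers of natural killer and cytotoxic cells, 2 were higher and 1 lower at day 2 and 2 were lower at day 28. Of all genes, 19.8%, 12.2% and 11.0% were higher on the 3 days and 15.2%, 8.74% and 9.57% lower.

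Ccl11 and Ccl24, attractants of eosinophils, fell, and Ccl26, which was also paired with Ccr3 here, was not called (-0.22, 0.09 and 0.11). Ccl11 (eotaxin) read 7.60, 8.37, 8.20 and 8.03 in intact rats, 6.30, 6.48, 6.72 and 7.08 at day 2, 6.67, 6.51, 7.31 and 6.90 on day 14 and 6.13, 5.97, 6.45 and 6.53 on day 28. All MIA arrays were below all intact arrays, with differences of -1.40 ± 0.21 (SE, adjusted p = 0.00015), -1.20 (adjusted p = 0.0014) and -1.78 (adjusted p = 5.5e-05). Ccl24 (eotaxin-2), which macrophages make, fell later. It read 7.53, 7.63, 7.44 and 7.96 in intact rats, 7.61, 7.11, 6.45 and 7.55 at day 2, 6.66, 6.78, 7.02 and 6.53 on day 14 and 6.42, 6.20, 6.60 and 6.15 on day 28. Day 2 overlapped the intact arrays and both later days were below them. The differences were -0.46 ± 0.21 (SE, adjusted p = 0.13), -0.89 (adjusted p = 0.011) and -1.30 (adjusted p = 0.00082), and those of days 14 and 28 were -0.77 (adjusted p = 0.098) and -1.13 (adjusted p = 0.05) with the marrow covariate. Their receptor Ccr3 was dim and spread, with 4.60, 4.86, 4.17 and 4.45 in intact rats, 4.42, 3.99, 4.39 and 4.39 at day 2, 3.72, 4.93, 4.26 and 3.95 on day 14 and 4.16, 4.62, 3.81 and 3.89 on day 28. It overlapped on every day, and its differences of -0.23, -0.31 and -0.40 (SE 0.24) did not pass.

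Ccl21 and Cxcl13, chemokines of lymphoid tissue, went apart at day 2. Ccl21, the Ccr7 ligand of lymphatic vessels, read 8.89, 8.37, 8.41 and 8.00 in intact rats, 9.53, 9.37, 9.21 and 9.94 at day 2, 8.58, 8.38, 9.22 and 8.57 on day 14 and 9.15, 8.13, 8.44 and 8.46 on day 28. Day 2 arrays were all above the intact ones and later arrays overlapped them. The day 2 difference was 1.10 ± 0.24 (SE, adjusted p = 0.0032), with a fall of 0.83 to day 14 (adjusted p = 0.031). Ccr7, on dendritic cells and lymphocytes, read 7.19, 7.09, 6.81 and 7.35 in intact rats and 7.28, 7.04, 6.93 and 6.85 at day 2, inside the same range (-0.09 ± 0.13 SE, adjusted p = 0.65). On day 14 it read 7.39, 7.08, 7.22 and 7.30 and on day 28 7.02, 7.20, 7.31 and 6.98, overlapping the intact arrays. Cxcl13, which guides B cells into follicles, was the most variable ligand. It read 10.84, 11.37, 10.24 and 11.93 in intact rats, 9.33, 9.80, 10.45 and 8.70 at day 2, 10.92, 9.84, 9.97 and 11.02 on day 14 and 11.09, 9.91, 10.77 and 9.70 on day 28. Replicate 3 of day 2 lay above replicate 3 of the intact group, and the groups overlapped on all days. The day 2 difference was -1.53 ± 0.44 (SE, adjusted p = 0.018), and it was lost without intact replicate 4 (-1.25, adjusted p = 0.063) or day 2 replicate 4 (-1.24, adjusted p = 0.061).

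Cxcr5, the receptor of Cxcl13 on B cells, read 7.31, 8.00, 8.29 and 7.92 in intact rats, 7.58, 7.10, 6.89 and 7.05 at day 2, 6.69, 6.97, 7.06 and 6.84 on day 14 and 6.51, 6.53, 6.61 and 6.98 on day 28. At day 2 replicate 1 reached into the intact range, and on the later days all arrays were below it. The differences were -0.73 ± 0.19 (SE, adjusted p = 0.01), -0.99 (adjusted p = 0.0027) and -1.22 (adjusted p = 0.00052). Of 15 B and plasma cell markers, 12 were lower at day 14 and 12 at day 28, with Cd79a, a chain of the B cell receptor complex, at -1.52 and -1.60. At day 2, 3 were lower and 1 was higher. Beside these counts, 15.2%, 8.74% and 9.57% of all genes were lower on the 3 days, and 19.8% were higher at day 2. The array means of the 15 markers were 8.34 to 8.55 in intact rats, 7.59 to 8.13 at day 2, 7.09 to 8.23 on day 14 and 6.75 to 8.03 on day 28. The part of these cells in the level of Cxcr5 was not tested.

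Cxcl14 rose and Cxcl12 fell at days 14 and 28. Cxcl14, made by fibroblasts and epithelia, read 9.82, 9.82, 9.67 and 9.26 in intact rats, 9.98, 9.80, 9.63 and 9.40 at day 2, 10.67, 10.33, 10.84 and 10.95 on day 14 and 10.78, 10.83, 11.02 and 11.04 on day 28. Day 2 arrays overlapped the intact ones and all later arrays were above them. The differences were 0.06 ± 0.16 (SE, adjusted p = 0.81), 1.05 (adjusted p = 0.00044) and 1.28 (adjusted p = 8e-05), with a rise of 0.99 from day 2 to day 14 (adjusted p = 0.00044). Cxcl12, which retains marrow cells and is made by stromal cells, changed less. Its values were 10.33, 10.50, 10.40 and 10.34 in intact rats, 10.24, 10.20, 10.13 and 10.36 at day 2, 10.01, 10.19, 10.06 and 9.90 on day 14 and 9.65, 10.06, 9.89 and 9.59 on day 28. The arrays of days 14 and 28 were below the intact ones. The differences were -0.16 ± 0.10 (SE, adjusted p = 0.28), -0.36 (adjusted p = 0.03) and -0.60 (adjusted p = 0.0012), and the day 2 difference was -0.30 after cyclic loess (adjusted p = 0.047).

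The marrow covariate left Cxcl12 at -0.16 (adjusted p = 0.33) on day 14 and at -0.33 (adjusted p = 0.1) on day 28, and the day 14 call was lost as well with median-centred arrays (-0.31, adjusted p = 0.055). Single arrays also decided the day 14 call of Cxcl12. It was lost without intact replicate 2 (-0.32, adjusted p = 0.071), 3 (-0.35, adjusted p = 0.058) or 4 (-0.37, adjusted p = 0.051) and without day 14 replicate 1 (-0.34, adjusted p = 0.069), 3 (-0.36, adjusted p = 0.055) or 4 (-0.31, adjusted p = 0.097). Cxcr4, the signalling receptor of Cxcl12, was not called on any day, with differences of 0.25, -0.03 and -0.10.

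The scavenging receptor of Cxcl12 and Cxcl11, Ackr3, dipped at day 2 and came back. It read 10.82, 10.75, 10.55 and 10.66 in intact rats, 9.24, 9.26, 9.09 and 8.92 at day 2, 10.75, 10.41, 10.54 and 10.56 on day 14 and 11.03, 10.85, 11.12 and 11.21 on day 28. Day 2 arrays were far below the intact ones, day 14 arrays overlapped them and day 28 arrays were just above. The differences were -1.56 ± 0.10 (SE, adjusted p = 1.5e-07), -0.13 (adjusted p = 0.47) and 0.36 (adjusted p = 0.031), and from day 2 to day 14 it rose by 1.44 (adjusted p = 6.9e-07). The small rise at day 28 did not pass after cyclic loess (0.26, adjusted p = 0.12) or with the marrow covariate (0.18, adjusted p = 0.59). It was also lost without intact replicate 3 (0.31, adjusted p = 0.092) or 4 (0.35, adjusted p = 0.069) and without day 28 replicate 1 (0.37, adjusted p = 0.064), 3 (0.34, adjusted p = 0.078) or 4 (0.31, adjusted p = 0.097).

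Ackr2, which takes up and degrades inflammatory CC chemokines such as Ccl2, was lower on all days. Its values were 7.86, 8.01, 8.20 and 7.92 in intact rats, 6.60, 6.92, 6.61 and 6.99 at day 2, 7.37, 6.99, 7.14 and 6.83 on day 14 and 7.35, 7.07, 7.30 and 7.45 on day 28. No MIA array reached the intact range. The differences were -1.22 ± 0.13 (SE, adjusted p = 8.4e-06), -0.91 (adjusted p = 0.00032) and -0.70 (adjusted p = 0.002).

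Smaller changes completed the list. Cxcl16, a membrane-bound ligand of Cxcr6, was higher on all days by 0.45, 0.47 and 0.45 (adjusted p = 0.0056, 0.0086 and 0.011), and Cxcr6 was not called. Ccl20, the Ccr6 ligand, was higher by 0.51 at day 2 and 0.72 at day 14 (adjusted p = 0.0016 and 0.00029), and Ccr6 was not called. Ccl22, a Ccr4 ligand of dendritic cells and macrophages, was higher at day 14 (0.61, adjusted p = 0.033), whereas Ccr4 and the other Ccr4 ligand Ccl17 were not called. Ccl27 and its receptor Ccr10, a pair known from skin, were both slightly lower at day 2, with differences of -0.27 (adjusted p = 0.038) and -0.28 (adjusted p = 0.04). The mean signals of Ccl17, Ccl20, Ccl22, Ccl27, Ccr4, Ccr6, Ccr10 and Cxcr6 lay below the median of all probe sets. On none of the 3 days did 20 of the 53 genes pass, namely Ccl1, Ccl17, Ccl19, Ccl25, Ccl26, Ccl28, Cxcl2, Cxcl11, Cxcl17, Xcl1, Ccr3, Ccr4, Ccr6, Ccr7, Ccr8, Ccr9, Cxcr3, Cxcr4, Cxcr6 and Xcr1.

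Ligands were paired with receptors they are known to bind, 35 pairs of 31 ligands and 18 receptors. These pairs do not cover every known binding. Ackr2 was in none of them, although it takes up CC ligands such as Ccl2. On all days Ackr2 was lower and Ccl2 higher, and the counts of opposite pairs do not hold this. At day 2 both partners were higher in 7 pairs, which were Ccr1 with Ccl3, Ccl6, Ccl7 and Ccl9 and Ccr2 with Ccl2, Ccl7 and Ccl12. Both were lower in 2 pairs, Cxcr5 with Cxcl13 and Ccr10 with Ccl27, and 1 pair, Cx3cr1 with Cx3cl1, went in opposite directions. In 8 pairs the ligand alone was called, in 4 the receptor alone and in 13 neither. These pairs share genes, so the 7 rest on 2 receptors and 6 ligands. At day 14, 1 pair was higher in both partners (Cxcr1 with Cxcl6), 1 was opposite, 14 had a called ligand alone, 1 a called receptor alone and 18 neither. At day 28 none rose or fell together, 2 were opposite (Cx3cr1 with Cx3cl1 and Ackr3 with Cxcl12), 13 had a called ligand alone, 6 a called receptor alone and 14 neither. In mixed tissue, the transcripts of a ligand and of its receptor may come from different cells. Among the receptors, Ccr3, Ccr4, Ccr6, Ccr8, Ccr9, Ccr10, Cxcr1, Cxcr3, Cxcr6 and Xcr1 had mean signals below the median of all probe sets.

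**Figure D5:**
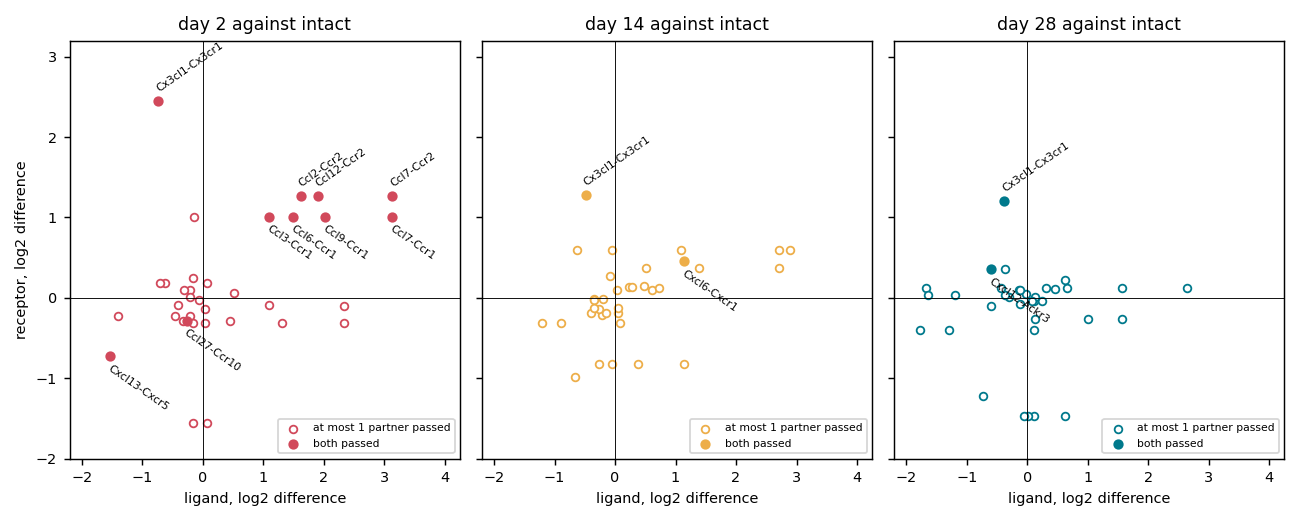
Log2 difference from intact rats of each receptor (vertical axis) against that of its ligand (horizontal axis) for the 35 pairs at days 2, 14 and 28. Filled points are pairs in which both partners passed an adjusted p of 0.05, 10 at day 2 with 7 in the upper right part, 2 at day 14 and 2 at day 28.

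Neighbouring genes differed in their course. On chromosome 10 of the RefSeq annotation (GRCr8), Ccl2, Ccl7, Ccl11, Ccl12 and Ccl1 follow each other with no other protein-coding gene between them. Within this run Ccl2, Ccl7 and Ccl12 rose at day 2, Ccl11 fell and Ccl1 did not pass (-0.22, adjusted p = 0.22). A further run on chromosome 10 holds Ccl5, Ccl9, Ccl6, Ccl3 and Ccl4. At day 28 Ccl9 and Ccl3 of this run were higher than in intact rats, Ccl5 and Ccl6 lower, and Ccl4 did not pass (0.37, adjusted p = 0.11). On chromosome 14 Cxcl11, Cxcl10 and Cxcl9 are neighbours, and so are Cxcl2 and Cxcl1. Of the 13 members on chromosome 10, 8 were higher and 2 lower at day 2, and of the 8 on chromosome 14, 2 were higher and 2 lower. On that day 19.8% of all genes were higher and 15.2% lower.

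Chemokine-type genes under other symbols gave 1 higher and 1 lower of 8 at day 2, 1 and 1 at day 14, and 3 lower at day 28. Pf4, a platelet chemokine, was 0.72 at day 2 and -0.79 at day 28, Ppbp, also of platelets, was -2.71 at day 28, and Ccrl2, a non-signalling receptor, was lower on all 3 days, at -0.27, -0.37 and -0.33. Of 9 receptors for other attractants, 4 were higher at day 2, with C3ar1, the complement C3a receptor, at 1.53 and Gpr183 at 1.26, and Fpr1, a receptor for formyl peptides, was lower at day 28 (-1.99). Downstream of the receptors, 34 of 59 signalling genes were higher and 6 lower at day 2, beside 19.8% and 15.2% of all genes, with a list median of 0.31 beside -0.05. At day 14, 8 were higher and 6 lower, beside 12.2% and 8.74% of all genes. At day 28, 11 were higher and 15 lower, beside 11.0% and 9.57%. Rgs1, which shortens the signal of chemokine receptors, was at 1.46, 1.69 and 1.80. Was and Dock2, which drive the actin changes of migrating leukocytes, were at 1.10 and 0.96 at day 2.

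Among genes for leukocyte adhesion, 11 of 18 were higher and 2 lower at day 2, whereas 6 and 1 were so on day 14 and 3 and 5 on day 28. Selp and Sele, the selectins of endothelium, were at 1.66 and 1.23 at day 2. Of 18 cytokines that induce chemokines, 3 were higher on each of days 2 and 14 and 2 on day 28, and 1 was lower on each later day. The shares of all genes on the 3 days were 19.8%, 12.2% and 11.0% higher and 15.2%, 8.74% and 9.57% lower. Il6 was at 2.81, 3.06 and 1.72 on the 3 days and Il1b at 1.34 at day 2 and 0.52 at day 14. Of 13 NF-kappaB factors and inhibitors, 6 were higher and 1 lower at day 2, and the later days had 4 and then 5 higher ones, with Bcl3 at 0.99, 1.21 and 0.73 and Nfkbiz at 0.63, 1.07 and 1.08. Of 15 proteases known to trim chemokines, 2 were higher at day 2, 8 at day 14 and 8 at day 28, and 4 were lower at day 28. Mmp12, a protease of macrophages, was at 3.50 and 3.59 on the later days, and Mmp8 of neutrophils was at -2.47 at day 28.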

How the data were processed

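RNA of the joint tissue was hybridised to 16 arrays (Rat Gene 2.0 ST, Affymetrix), 4 per group. The values the authors deposited are log2 signals, 1 per probe set and array. Their processing notes credit them to RMA in oligo 1.36.1, whereas their methods name GeneChip Operating Software, a background correction, quantile scaling and a log2 step. Quantile scaling makes the distributions of the arrays alike, so a shift common to most genes would be largely hidden. The genome build of the probe annotation is not given in the sources used here. The values ran from 1.60 to 13.84, with array medians of 6.57 to 6.69, and arrays correlated at 0.959 to 0.992 across 36685 probe sets. No arrays held identical values.

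Of the probe sets, 18511 carried 1 symbol, 575 several and 17599 no symbol used here. Each gene was read from its brightest probe set. All 53 members matched a RefSeq symbol by gene ID. The labels gave the groups and the titles the replicate numbers, which differ from the descriptions at day 2. Each array pools a pair of animals and counts as 1 sample, and precision is limited by how many arrays there are.

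All 4 groups were fitted in 1 model in limma 3.58.1 (R 4.3.3) with a mean per group, with Benjamini-Hochberg adjustment of p across the whole set of 36685 probe sets. A difference is that of group means on the log2 scale, ± its standard error. Calls used an adjusted p under 0.05. The code was tested on simulated data. Full values are given for 22 members that passed with a change of more than 2-fold on at least 1 day and for 10 of their partners, and up to 3 genes are named per other list. The members, the 22 lists and the pairs were chosen with earlier results of these data known. Alternatives covered scaling, probe sets, a filter on dim probe sets, the variance prior, a replicate block, covariates, the groups fitted, single arrays and the methods' t-test. The replicate numbers were checked for pairing and did not pair the arrays. Promoters came from RefSeq (GRCr8). Figures were drawn with matplotlib 3.10.9 in Python 3.11.15.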

Additional observations from a re-analysis of the deposited data

Results flagged for a closer look

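Of 128 groups of 4 arrays tested for an array far from the others, 3 had one, and chance gives about 1 in 20 such groups. Ccl3 on day 2 replicate 4 read 8.32, with the others at 7.83 to 7.88. Cxcl3 on day 14 replicate 4 read 4.22, with the others at 3.97 to 4.00. Ccr3 on day 2 replicate 2 read 3.99, with the others at 4.39 to 4.42. None of the 3 lies on the same array as another.

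The change from intact rats differed between days 2 and 14 in 11 of the named genes (limma, adjusted p). Of all 53 genes of the family, 5 were higher and 7 lower at day 14 than at day 2 (9.4% and 13.2%). This is near the 9.62% and 11.7% of all 18166 genes. The level at day 14 was lower than at day 2 for Ccl6 (-2.12, adjusted p = 8.3e-05), Ccl12 (-1.39, adjusted p = 0.00046), Cxcl6 (-1.18, adjusted p = 0.0065), Cx3cr1 (-1.17, adjusted p = 3.7e-05), Cxcl1 (-0.93, adjusted p = 0.0074), Ccr2 (-0.91, adjusted p = 0.0029) and Ccl21 (-0.83, adjusted p = 0.031). It was higher for Ackr3 (1.44, adjusted p = 6.9e-07), Cxcl14 (0.99, adjusted p = 0.00044), Ccl9 (0.86, adjusted p = 0.012) and Cxcr1 (0.55, adjusted p = 0.0079). Between days 14 and 28 it differed for Cxcl9 (-1.24, adjusted p = 0.0057).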

How the results depend on the processing

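On leaving out each array in turn, 15 genes were higher at day 2 in every fit, and the other counts ranged from 5 to 11 lower at day 2 (5 without intact replicate 4), 10 to 13 higher and 5 to 7 lower at day 14, and 7 to 9 higher and 8 to 11 lower at day 28. From day 2 to 14 they were 5 to 9 higher (9 without day 14 replicate 2) and 6 to 8 lower, and from day 14 to 28 0 to 1 higher and 1 to 3 lower. The F-test gave 26 to 30. Pairs with both partners higher stayed at 7 on day 2 and were 0 to 1 on day 14, and pairs with both lower on day 2 were 0 to 3. With the marrow covariate 4 genes were higher and 4 lower at day 28, 3 higher from day 2 to 14, 2 lower from day 14 to 28, 3 pairs were both higher at day 14, and Cxcr2 at day 28 reversed to 0.053 (adjusted p = 0.94). With the muscle covariate 4 genes were lower from day 2 to 14. The replicate block, for numbers whose arrays did not deviate together (correlations of -0.36 to 0.46, best with the own number in 9 of 48 cases), left 1 pair both lower at day 2, called Cxcl10 at day 2 (adjusted p = 0.032) and lost Cxcl3 at day 14 (adjusted p = 0.057). From day 14 to 28, cyclic loess gave 2 lower, and the filter on dim probe sets and the trended robust prior each 1 higher and 2 lower. Pairs both lower at day 2 numbered 1 with median-centred arrays, with the dim filter, with the trended prior and with the compared groups alone. The dim filter and the compared groups alone gave 0 pairs both higher at day 14, and the latter 0 genes lower from day 14 to 28. The methods' t-test after Benjamini-Hochberg adjustment gave 5 lower at day 2, 4 higher against 2 lower on day 14, 5 higher against 4 lower on day 28, 1 lower from day 2 to 14, 0 lower from day 14 to 28, 3 pairs both higher and 0 both lower at day 2, and 0 both higher at day 14. At its threshold (p under 0.0001) with a fold above 2 it gave 3 higher and 1 lower at day 2, 1 and 0 at day 14, 1 and 0 at day 28, 1 and 0 from day 2 to 14, 0 lower from day 14 to 28, and 0 pairs. The cause of these differences was not tested.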

Other observations

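Markers of other cells of the joint gave the following counts against intact rats. They stand beside 19.8%, 12.2% and 11.0% of all genes higher on the 3 days and 15.2%, 8.74% and 9.57% lower. Of 13 mast cell markers, 6 were lower at day 2, 5 at day 14 and 4 at day 28, with Hpgds, a prostaglandin D synthase of mast cells and macrophages, at -1.69, -1.68 and -1.53. Of 8 osteoclast markers, 3 were higher at day 2, and 5 were higher and 1 lower on each later day, with Atp6v0d2, a subunit of the osteoclast proton pump, at 1.82 and 1.87. These counts stand beside Ccl9, which in the mouse is made by osteoclasts. Of 15 osteoblast and osteocyte markers, 3 were lower at day 2 and 2 at day 14, and Ibsp was higher at day 28 (0.88). Synovial and fibroblast markers were 3 higher and 8 lower of 17 at day 2, and 7 and 2 at day 14 and 7 and 1 at day 28, with Lrrc15, a surface protein of activated fibroblasts, at 1.80, 3.02 and 3.02, beside the late rise of Cxcl14. Of 15 endothelial markers, 1 was higher and 4 lower at day 2, 8 were lower at day 14 and 6 at day 28, beside the fall of Cx3cl1. Of 14 erythroid and progenitor markers, 12 were lower at day 14 and 12 at day 28, with Hemgn at -2.53 and -3.17. The part of these cells in the levels of the chemokines was not tested.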
